A study of Mus musculus with 6 samples.

Results

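The incretin receptors and their class B relatives are described here as 10 of the 53808 mouse genes measured in MIN6 β cell lines. They are *Glp1r*, *Gipr*, *Gcgr*, *Glp2r*, *Sctr*, *Vipr1*, *Vipr2*, *Adcyap1r1*, *Crhr1* and *Ghrhr*, listed by name and matched by Ensembl identifier through the GENCODE M21 annotation, and all 10 were found. The question put to them was whether the lower *Glp1r* mRNA of *Snd1* KO clones is shared by its relatives. MIN6 is a mouse insulinoma cell line. Each of the 6 lines was grown from a single cell of a MIN6 line that expresses Cas9, infected with lentivirus carrying a gRNA to *Snd1* and selected with puromycin, so control and KO clones alike carry Cas9 and the virus. In the 3 control clones the gRNA targeted *Intron 2* of *Snd1*, and in the 3 *Snd1* KO clones it targeted *exon 2*. RNA from each clone was sequenced once, so a group is 3 clones, and a difference between groups cannot be told apart from a difference that single-cell cloning happened to leave between them.

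Class B1 receptors are G protein-coupled receptors with a large extracellular domain that captures the C-terminal end of a peptide hormone, while its N-terminal end enters the membrane core. Most of them couple to Gs and adenylyl cyclase and so raise cAMP. In β cells cAMP acts through protein kinase A and Epac to increase insulin secretion when glucose is high, which is why GLP-1 and GIP, the gut hormones released after a meal, are called incretins. The glucagon, secretin, VIP, PACAP, CRH and GHRH receptors belong to the same family.

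*Snd1* itself, the targeted gene, had values of 113, 119 and 112 TPM in the controls (clones 1 to 3, the order kept throughout) and of 14.7, 57.1 and 19.9 TPM in the *Snd1* KO clones. TPM, a relative abundance, corrects the reads of a gene for its length and for the size of the library, whose values add up to 1000000. Every KO clone was below every control clone, and KO clone 2 kept 49.8% of the control mean. Depth was 23696379 to 30447853 reads on genes per clone, recovered from steps in the TPM values, and it is not stated whether both mates of a pair count here. All 12 β cell markers examined were above the filter of a mean of 0.5 TPM. By limma 0 of them had an adjusted p under 0.05 and 3 an unadjusted p under 0.05 (7.96% of all genes had one), *Neurod1* (log2 fold change 0.78) and *Slc30a8* (1.45), higher in every KO clone, and *Slc2a2* (-1.27), with overlap, named after their values were seen. Of 17 markers of other cell types only *Gcg*, *Ttr* and *Col3a1* were, and *Hhex*, *Prss2* and *Cpa1*, which mark δ and acinar cells, had no read in any clone, while *Sst*, also of δ cells, had 0 to 2 reads in control and 0 to 9 in KO clones, and *Cela1*, also of acinar cells, 0 to 22 and 0 to 9. *Col3a1*, a collagen of fibroblasts, had 122, 119 and 0 reads in control and 2, 7 and 3 in KO clones, and *Col1a1* 34, 38 and 2 against 9, 8 and 15, so control clones 1 and 2 were the highest for both. The summed level of these 17 markers, most of it *Ttr*, ranged from 14436 to 20316 TPM in control and from 3088 to 8923 TPM in KO clones, and the part of these markers in the receptor values was not tested. Over 11368 genes that averaged 5 TPM or more, control clones 1 and 2 lay at 30.3 and 33.0 on the first principal component, which held 40.3% of the variance, while control clone 3 lay at -12.9 and KO clones 1 to 3 at 2.74, -35.1 and -18.0. Control clone 3 therefore sat among the KO clones. The clone quality weights of limma gave control clone 3 0.279 and KO clone 1 0.286. Control clones 1 and 2 had 1.88 and 2.54, KO clone 2 0.672 and KO clone 3 3.91. Weighted values therefore rest mostly on control clones 1 and 2 and on KO clone 3. With these weights 3 of the 12 β cell markers had an adjusted p under 0.05 by limma, against 12.1% of all genes. They were *Neurod1*, *Slc30a8* and *Mafa* (log2 fold change -0.93, beside -0.27 without weights), and *Slc2a2* did not pass. The main receptor results are given with and without control clone 3 and KO clone 1. That setting was chosen after the data were seen and leaves control clones 1 and 2 against KO clones 2 and 3.

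For *Glp1r*, *Vipr1* and *Crhr1*, the 3 receptors with the highest mean TPM, the 200 bases from 250 to 51 bases before the annotated RefSeq transcription start are shown (GRCm38.p6, plus strand), since these are the genes on which the comparison turns. Capitals mark the GC box GGGCGG, the core site of Sp family factors, read on either strand. They lie at chr17:30901617-30901816 (*Glp1r*), chr9:121642466-121642665 (*Vipr1*) and chr11:104132531-104132730 (*Crhr1*).
Glp1r: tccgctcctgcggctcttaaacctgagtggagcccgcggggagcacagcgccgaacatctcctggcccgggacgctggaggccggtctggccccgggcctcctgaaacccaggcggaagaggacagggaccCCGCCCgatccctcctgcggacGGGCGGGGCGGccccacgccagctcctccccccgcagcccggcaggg
Vipr1: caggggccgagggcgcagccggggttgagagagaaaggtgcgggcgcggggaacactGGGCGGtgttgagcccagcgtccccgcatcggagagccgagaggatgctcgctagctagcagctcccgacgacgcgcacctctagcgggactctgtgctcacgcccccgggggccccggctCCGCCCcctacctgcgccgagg
Crhr1: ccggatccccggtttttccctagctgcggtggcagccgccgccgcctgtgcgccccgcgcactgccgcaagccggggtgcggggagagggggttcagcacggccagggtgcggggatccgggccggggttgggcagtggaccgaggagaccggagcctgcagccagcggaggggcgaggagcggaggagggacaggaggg
The *Glp1r* window was 75% G and C and held 20 CpG dinucleotides and 3 GC boxes, of which 2 overlap in one run. The *Vipr1* window was 73% G and C with 23 CpG and 2 GC boxes, and the *Crhr1* window was 75.5% G and C with 21 CpG and no GC box in these bases. Over 32851 such windows of all genes the median was 51.5% G and C with 4 CpG, and 24.6% held a GC box. Searched on both strands, none of the 3 windows held the CCAAT box, which 28.4% of all windows held. The same was true of the TATAAA box (9.14% of all windows), of TGACG, the half-site of the cAMP response element (12.7%), and of TAATTA, a palindrome read by homeodomain factors (4.19%). The windows stop 51 bases before the start, so boxes nearer to it were not searched for. Their absence from the promoters, that of TATAAA above all, is therefore not shown. Of the 10 receptors 7 had a window, and a match of letters is a description and not a binding site.

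The family was split between a few well measured genes and several that were hardly transcribed. Of the 10 receptors, 5 passed the filter (*Glp1r*, *Crhr1*, *Vipr1*, *Gipr* and *Vipr2*), *Adcyap1r1* stayed below it with up to 58 reads, and *Gcgr*, *Glp2r*, *Sctr* and *Ghrhr* had at most 2 reads in any clone. To compare levels between genes, TPM were recomputed per exonic base, with each base counted once, except that *Glp1r* was divided by the 1480 bases for which its reads came out whole and not by its 5811 annotated exonic bases. On this scale *Glp1r* was at 326 to 698 in control clones, above *Crhr1* at 112 to 130. *Vipr1* at 31.3 to 99.4 and *Gipr* at 36.2 to 66.2 came next and their ranges overlapped, followed by *Vipr2* at 1.20 to 1.87 and *Adcyap1r1* at 0.222 to 1.002. In *Snd1* KO clones *Glp1r* was at 253 to 287, while *Vipr1* at 85.3 to 118 and *Crhr1* at 92.6 to 110 now overlapped each other, and both exceeded *Gipr* at 24.7 to 59.4. The place of *Glp1r* depends on the length taken. Divided by the 5811 bases it was at 83.2 to 178 in control clones, overlapping *Crhr1*, and at 64.3 to 73.0 in KO clones, below *Crhr1* and *Vipr1*.

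**Figure D1:**
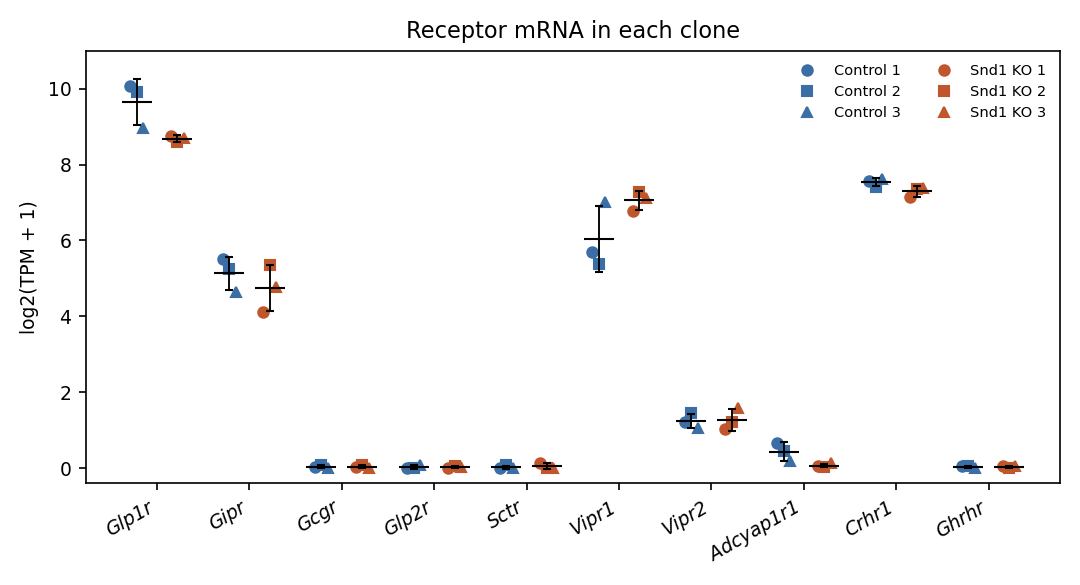
The level of each of the 10 receptors on the log2(TPM + 1) scale (vertical axis) in the 3 control (blue) and 3 *Snd1* KO clones (orange), with bars for the group mean and SD. *Glp1r*, *Crhr1* and, at low read counts, *Adcyap1r1* are lower in every KO clone than in every control clone. *Vipr1* in control clone 3 sits with the KO clones, and *Gcgr*, *Glp2r*, *Sctr* and *Ghrhr* lie at 0 or close to it.

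*Glp1r*, the receptor of GLP-1 (chromosome 17, 30901817 to 30940791, plus strand), had levels of 1068, 964 and 494 TPM in the controls and of 432, 384 and 414 TPM in the *Snd1* KO clones. Every KO clone was below every control clone, but control clone 3 stood closer to the KO clones than to the other controls. The means were 842 ± 306 TPM in control and 410 ± 24.2 TPM in KO (SD, n = 3 clones each), so KO clones held 48.7% of the control mean, and KO clones varied less than controls. In such bulk RNA, fewer expressing cells and less mRNA per cell cannot be told apart. Expressed against the control mean, control clone 3 held 58.7% and KO clones 51.3%, 45.6% and 49.1%. The log2 fold change on the log2(TPM + 1) scale was -0.96 with an SE of 0.29, a 95% interval of -1.65 to -0.27 and an adjusted p of 0.568 by limma with Benjamini-Hochberg adjustment over 17823 genes. An exact two-sided permutation test of the group means gave p = 0.1, the smallest that 3 against 3 clones allow. With 1 clone left out the log2 fold change ranged from -1.31 without control clone 3 (limma adjusted p = 0.0571) to -0.75 without control clone 1 (limma adjusted p = 0.938). Without control clone 3 and KO clone 1, left out after the data were seen, it was -1.35 (limma adjusted p = 0.0468). Control clone 3 had the lowest control value, so leaving it out widens the difference. With clone quality weights, which rest mostly on control clones 1 and 2 and KO clone 3, it was -1.23 (limma adjusted p = 0.0183).

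Behind these values stood 9054, 7765 and 3622 reads in controls against 3301, 2828 and 3264 in KO clones, so counting error is small beside the difference between clones. They came out as whole numbers for a gene length of 1480 bases, close to the 1389 coding bases of *Glp1r* and far from the 5811 exonic bases that GENCODE M21 gives it, so the deposited value appears to rest on fewer bases than the annotated exons. The antisense genes AC165951.1 and AC174471.1 overlap *Glp1r*, and their reads cannot be told apart from its own if strand was not used in counting, which is not stated. The coding sequence of *Glp1r* is identical to those of the other 14 mouse class B1 receptors at 47.8% (*Pth1r*) to 59.3% (*Gcgr*) of aligned positions. Among the 45 pairs of the 10 receptors, 1 pair shared a run of 31 bases in its transcripts, *Glp1r* and *Vipr2*, with 4 such runs.

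*Gipr*, which binds GIP, the other incretin (chromosome 7, 19156061 to 19166127, minus strand), stood at 44.6, 36.7 and 24.2 TPM in controls and at 16.4, 39.8 and 26.4 TPM in KO clones. The groups overlapped, since KO clone 2 was above 2 of the 3 control clones. The log2 fold change was -0.38 with an SE of 0.35, a 95% interval of -1.22 to 0.45 and an adjusted p of 0.777 by limma. The value was set by single clones, as it was -0.07 without KO clone 1, -0.68 without KO clone 2 and -0.62 without control clone 3. The interval includes no change as well as the log2 fold change of *Glp1r*.

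*Vipr1*, one of the VPAC receptors that bind both VIP and PACAP (chromosome 9, 121642716 to 121672954, plus strand), ran the other way. Its values were 50.6, 40.6 and 128 TPM in controls and 110, 153 and 138 TPM in KO clones. KO clones exceeded control clones 1 and 2, but control clone 3 lay within the KO range, so the groups overlapped. Group means were 73.1 ± 48.0 TPM in control and 133 ± 22.1 TPM in KO (SD, n = 3 clones each). The log2 fold change was 1.03 with an SE of 0.41, a 95% interval of 0.05 to 2.02 and an adjusted p of 0.607 by limma, and the exact two-sided permutation test gave p = 0.2. With 1 clone left out it ranged from 0.71 without control clone 2 (limma adjusted p = 0.983) to 1.52 without control clone 3 (limma adjusted p = 0.0755). It was 0.86 without control clone 1, 1.66 without control clone 3 and KO clone 1 (limma adjusted p = 0.0468), and with clone quality weights 1.52 (limma adjusted p = 0.0217). Control clone 3 was thus the control with the least *Glp1r* and the most *Vipr1*, so leaving it out, a choice made after the data were seen where KO clone 1 went too, widens both differences.

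*Vipr2*, the second VPAC receptor (chromosome 12, 116077726 to 116146261, plus strand), was low throughout, with 1.30, 1.72 and 1.09 TPM in control and 1.02, 1.33 and 1.98 TPM in KO clones, from 39 to 78 reads each. The groups overlapped fully, and the log2 fold change was 0.04 with a 95% interval of -0.57 to 0.64 and an adjusted p of 0.981 by limma. Its sign turned with quantile normalization and when control clone 3 or KO clone 3 was left out, and Gm20658 overlaps it on the other strand.

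*Adcyap1r1*, which encodes PAC1, the receptor with high affinity for PACAP alone (chromosome 6, 55451978 to 55501451, plus strand), was below the filter. Controls gave 58, 35 and 11 reads of it and KO clones 3, 2 and 8 reads, which is 0.584, 0.371 and 0.128 TPM against 0.0336, 0.0232 and 0.0866 TPM. Every KO clone was below every control clone, and the ratio of mean TPM was 0.132, but KO clones 1 and 2 were at or under the floor of 3 reads. With voom on the recovered reads of all genes with 10 reads or more, an alternative added after the data were seen, the log2 fold change was -2.75 with an SE of 0.81 and an adjusted p of 0.541. On the log2(TPM + 1) scale without a filter, where the added 1 outweighs such low values, it was -0.36 with an adjusted p of 0.745 by limma.

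*Crhr1*, the receptor of corticotropin-releasing hormone (chromosome 11, 104132855 to 104175523, plus strand), stood at 188, 170 and 197 TPM in controls and at 140, 162 and 167 TPM in KO clones. Every KO clone was below every control clone, by a small margin between control clone 2 and KO clone 3. The log2 fold change was -0.25 with an SE of 0.12, a 95% interval of -0.52 to 0.03 and an adjusted p of 0.607 by limma (exact two-sided permutation p = 0.1). It was -0.12 with clone quality weights (limma adjusted p = 0.305) and -0.12 without control clone 3 and KO clone 1 (limma adjusted p = 0.389). The means were 185 ± 13.9 TPM in control and 156 ± 14.4 TPM in KO (SD, n = 3 clones each).

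The remaining 4 receptors were at the floor of 3 reads or below in every clone. *Gcgr*, the glucagon receptor, showed 1, 2 and 0 reads in controls against 1, 2 and 0 in KO clones. *Glp2r*, the receptor of GLP-2, showed 0, 0 and 2 against 0, 1 and 1. *Sctr*, the secretin receptor, showed 0, 1 and 0 against 2, 0 and 0, and *Ghrhr*, the receptor of growth hormone-releasing hormone, 1, 1 and 0 against 1, 0 and 1. A difference between groups was not detectable for these genes at this depth, and no fold change is given.

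Counted together, 0 of the 5 receptors above the filter passed an adjusted p of 0.05 by limma, and 0 with voom on recovered reads. Across all 17823 genes 1 gene, or 0.00561%, passed that threshold with a 2-fold change, namely Gm24966, which is named after its value was seen. At an unadjusted p under 0.05 there were 2 receptors, *Glp1r* lower and *Vipr1* higher, against 7.96% of all genes. Of the same 5, *Glp1r* and *Crhr1* were lower in every KO clone than in every control clone, a pattern of 4.03% of all genes, and none was higher in every KO clone, a pattern of 9.69% of all genes. With clone quality weights *Glp1r* and *Vipr1* passed the adjusted threshold, as did 12.1% of all genes, and without control clone 3 and KO clone 1 the same 2 receptors passed, as did 0.954% of all genes. The latter setting was added after the data were seen. The median log2 fold change of the 5 was -0.25, beside 0.04 over all genes tested, with 3 lower and 2 higher.

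**Figure D2:**
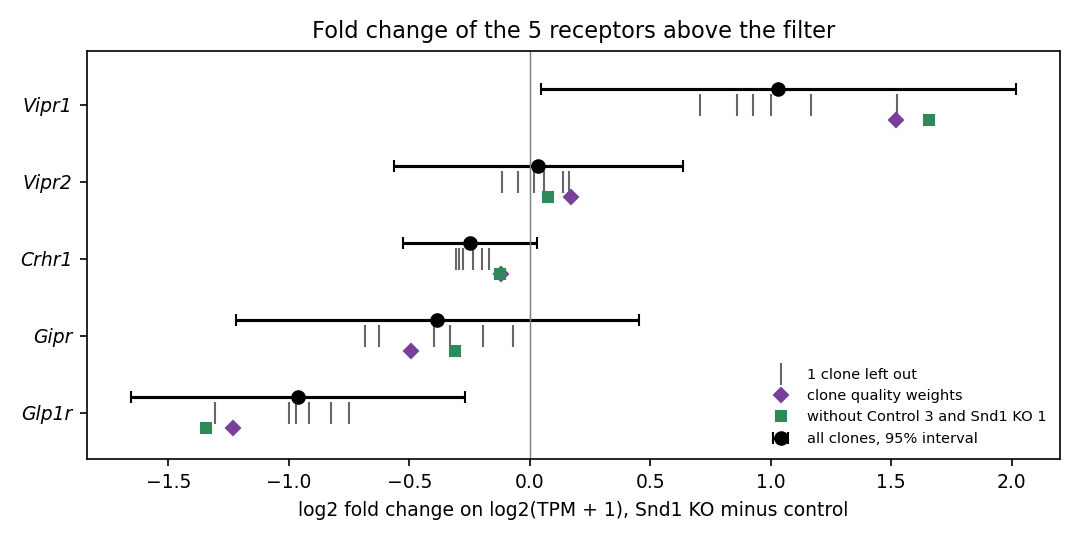
Log2 fold changes on the log2(TPM + 1) scale (horizontal axis, *Snd1* KO minus control) of the 5 receptors above the filter, with the 95% interval of limma over 6 clones (black), the values with each clone left out in turn (ticks), with clone quality weights (diamonds) and without control clone 3 and KO clone 1 (squares). *Glp1r* lies below 0 and *Vipr1* above 0 at every setting drawn, and the interval of *Gipr* covers both 0 and the -0.96 of *Glp1r*.

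Whether *Glp1r* differed from a relative was tested on the difference itself, log2(TPM + 1) of *Glp1r* minus that of the other receptor within each clone, for 4 pairs. Against *Vipr2* the difference was 8.86, 8.47 and 7.89 in control and 7.74, 7.37 and 7.12 in KO clones, so it was lower in every KO clone, by a mean of -0.997. An exact two-sided permutation test gave p = 0.1, the smallest possible, and p = 0.267 after Benjamini-Hochberg adjustment over the 4 pairs. Against *Vipr1* it was 4.37, 4.54 and 1.94 in control and 1.97, 1.32 and 1.58 in KO clones, a mean shift of -1.99 that was the widest of the 4 pairs, yet control clone 3 fell within the KO range (exact permutation p = 0.2, adjusted p = 0.267). With 1 clone left out the shift ranged from -2.83 without control clone 3 to -1.53 without control clone 2.

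Against *Crhr1* the difference was 2.50, 2.50 and 1.32 in control and 1.62, 1.24 and 1.31 in KO clones, a mean shift of -0.71 with overlap at control clone 3 (exact permutation p = 0.2, adjusted p = 0.267). With 1 clone left out the shift ranged from -1.11 without control clone 3 to -0.52 without control clone 1 or 2. Against *Gipr* it was 4.55, 4.68 and 4.30 in control and 4.64, 3.24 and 3.92 in KO clones, a mean shift of -0.58 (exact permutation p = 0.3, adjusted p = 0.3), which was -0.93 without KO clone 1, -0.23 without KO clone 2 and -1.03 without control clone 3 and KO clone 1. In all 4 pairs *Glp1r* was lower relative to its relative in KO clones on average, but the 4 pairs share the same *Glp1r* values and are not independent. With 3 clones a group this exact test cannot go below 0.1, so its p-values do not bear on whether the receptors changed together.

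Seen as a makeup, the summed level per base of the 15 mouse class B1 receptors, with *Glp1r* at 1480 bases, was 928, 834 and 594 in control and 491, 538 and 532 in KO clones. *Glp1r* made up 75.1%, 75.9% and 55.0% of this sum in control clones 1 to 3 and 58.4%, 46.9% and 51.3% in KO clones 1 to 3, while *Vipr1* made up 4.18%, 3.75% and 16.7% against 17.4%, 21.9% and 20.1%. Control clone 3 was placed with the KO clones by both shares. *Crhr1* took 13.2%, 13.4% and 21.9% in control and 18.9%, 19.8% and 20.7% in KO clones, and *Gipr* 7.13%, 6.56% and 6.10% against 5.04%, 11.03% and 7.45%. These shares sum to 100% and thus are not independent of each other. With *Glp1r* at its 5811 exonic bases its share was 43.5%, 44.6% and 23.7% in control and 26.3%, 18.4% and 21.2% in KO clones, and that of *Vipr1* 9.50%, 8.64% and 28.3% against 30.8%, 33.7% and 32.5%, so the sizes depend on the length and control clone 3 was again placed with the KO clones.

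**Figure D3:**
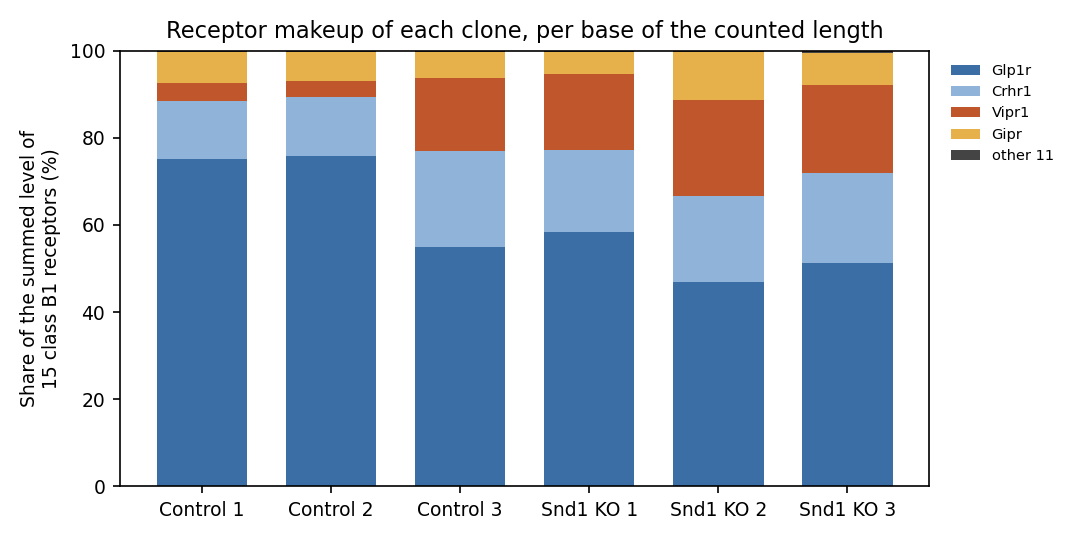
Share of each receptor (vertical axis, percent) in the summed level per base of 15 class B1 receptors, with *Glp1r* at 1480 bases, stacked for each of the 6 clones. *Glp1r* fills about 75% of control clones 1 and 2 and 46.9% to 58.4% of the other 4 clones, where *Vipr1* takes 16.7% to 21.9%.

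The other 5 class B1 receptors, *Crhr2*, *Calcr*, *Calcrl*, *Pth1r* and *Pth2r*, were all below the filter, with at most 5 reads in any clone. *Pth2r* was seen with 4, 3 and 2 reads in controls and with none in KO clones, too few for a fold change. RAMPs are single-pass membrane proteins that associate with receptors of this family and shift their ligand choice or transport to the surface, and all 3 passed the filter. *Ramp2* stood at 19.9, 25.1 and 3.89 TPM in controls and at 6.90, 3.41 and 3.58 TPM in KO clones, with overlap at control clone 3 (log2 fold change -1.35, SE 0.64, limma adjusted p = 0.607). *Ramp2* with clone quality weights gave -2.20 (limma adjusted p = 0.022), and control clone 3 sat with the KO clones for this gene too. For *Ramp3*, controls gave 11, 10 and 3 reads and KO clones 52, 12 and 20, higher in every KO clone (log2 fold change 0.89, limma adjusted p = 0.607), and *Ramp1* overlapped between groups.

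Of 18 peptide ligands of the family, 8 passed the filter and 6 had no read in any clone, *Vip*, *Crh*, *Ucn*, *Calcb*, *Pth* and *Pth2*. *Gcg*, whose precursor yields glucagon or GLP-1, stood at 267, 174 and 314 TPM in controls and at 1100, 55.2 and 148 TPM in KO clones, so KO clones held both the highest and the lowest value (log2 fold change -0.23, limma adjusted p = 0.966). *Gip*, the ligand of *Gipr*, was met with 0, 9 and 0 reads in controls against 1, 0 and 0 in KO clones. *Adcyap1*, which encodes PACAP, was listed at 0.167, 0 and 0 TPM in control and 0, 0.0963 and 0 TPM in KO clones. The ligands of *Vipr1*, *Vipr2*, *Adcyap1r1* and *Crhr1* were therefore at or close to 0 in these clones.

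*Sct*, which encodes secretin, stood at 340, 192 and 117 TPM in controls and at 80.1, 19.0 and 28.3 TPM in KO clones. Every KO clone was below every control clone, and KO clones held 19.6% of the control mean (log2 fold change -2.45, SE 0.59, limma adjusted p = 0.544). With clone quality weights it was -3.00 (limma adjusted p = 0.0179). Its own receptor *Sctr* had at most 2 reads. Among the other ligands that averaged 5 TPM or more, *Ucn3*, a urocortin expressed by mature mouse β cells, was seen with 4, 3 and 2 reads in controls against 317, 5 and 5 in KO clones, so its mean rested on KO clone 1.

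*Iapp*, the amylin gene, ranged from 22390 to 49144 TPM in control and from 29417 to 50247 TPM in KO clones. *Adm2*, which encodes intermedin, ranged from 2.29 to 22.3 TPM and from 8.51 to 21.8 TPM. Both overlapped between groups, with adjusted p-values of 0.838 and 0.868 by limma.

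**Figure D4:**
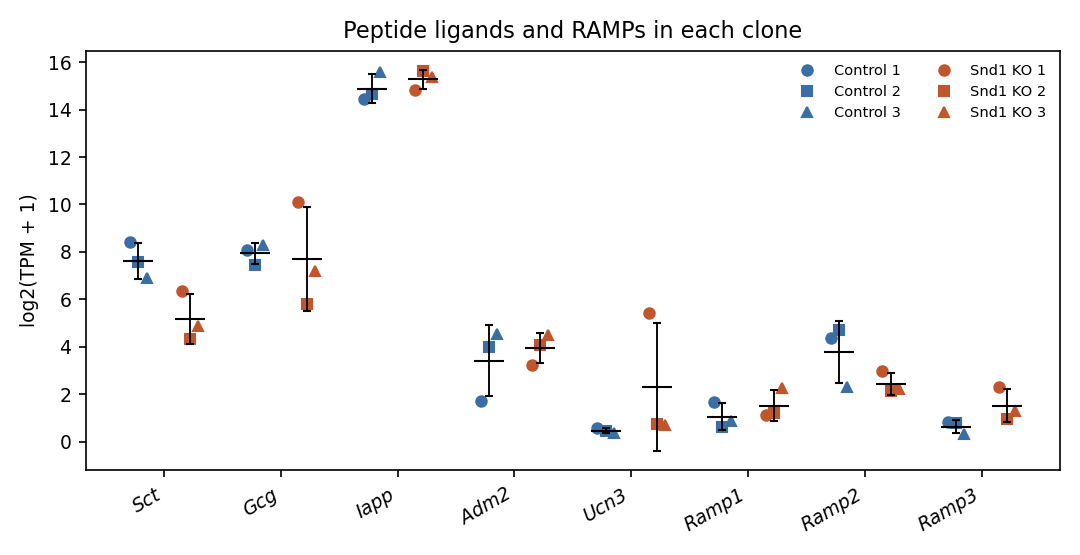
The level on the log2(TPM + 1) scale (vertical axis) of the 5 peptide ligands averaging 5 TPM or more and of the 3 RAMPs in control (blue) and *Snd1* KO clones (orange), with bars for the group mean and SD. *Sct* is lower in every KO clone, *Gcg* spreads from 55.2 to 1100 TPM over KO clones, and *Ucn3* is high in KO clone 1 only.

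Downstream of the receptors, 44 of 54 genes of cAMP signalling passed the filter, and 0 had an adjusted p under 0.05 by limma. At an unadjusted p under 0.05 there were 10 of the 44, 9 higher and 1 lower, against 7.96% of all genes. Without overlap 8 were higher and 3 lower, against 9.69% and 4.03% of all genes, 13 had an adjusted p under 0.05 with clone quality weights, against 12.1%, and the list median was 0.02 beside 0.04 over all genes. Among cAMP genes averaging 5 TPM or more, the largest log2 fold change upward was that of *Gnai2*, the inhibitory G protein subunit, at 73.3, 66.9 and 114 TPM in control and 123, 154 and 147 TPM in KO clones (log2 fold change 0.77, SE 0.21, limma adjusted p = 0.568). *Prkar2a*, a regulatory subunit of protein kinase A, followed at 58.9, 62.2 and 89.6 against 113, 87.0 and 101 TPM (0.53, adjusted p = 0.591 by limma), and *Adcy6*, an adenylyl cyclase, at 10.02, 10.2 and 12.5 against 15.1, 16.0 and 13.1 TPM (0.40, adjusted p = 0.597 by limma). *Gnai2* and *Adcy6* did not overlap between groups, while *Prkar2a* did. *Gnai2* and *Prkar2a* both lie between positions 100000000 and 109999999 of chromosome 9 (GRCm38), where 94 genes averaging 5 TPM or more had a median 0.51 (log2) lower in control clones 1 and 2 than in the other 4 clones, and the part of this stretch in their values was not tested.

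Downward, again among genes averaging 5 TPM or more, the largest was that of *Pde4b*, a phosphodiesterase that degrades cAMP, at 32.4, 25.6 and 11.9 TPM in control and 17.7, 6.03 and 7.54 TPM in KO clones (log2 fold change -1.12, limma adjusted p = 0.607). *Pde10a*, another phosphodiesterase, was at 18.5, 16.4 and 9.04 against 18.5, 4.76 and 8.05 TPM (-0.58, adjusted p = 0.758 by limma), and *Prkar1a*, a regulatory subunit of protein kinase A, at 1191, 1214 and 575 against 810, 517 and 682 TPM (-0.51, adjusted p = 0.695 by limma). These 3 genes overlapped between groups, with control clone 3 the lowest control in each. Below 5 TPM, and named after their values were seen, *Pde7b* and *Pde4d* were lower in every KO clone (-0.98 and -0.64) and *Adcy3* and *Pkib* higher in every KO clone (1.06 and 0.85), with adjusted p-values of 0.568 to 0.607 by limma. *Adcy3*, at a mean of 0.207 TPM in control and 1.56 TPM in KO clones, passed the filter only through the KO clones, so its difference and its place in the counts of higher genes follow in part from the filter. *Gnas*, which encodes Gs itself, had a log2 fold change of -0.41 (limma adjusted p = 0.631). Without control clone 3 *Prkar1a* and *Pde10a* were both at -0.87 and *Gnas* at -0.66. With clone quality weights *Pde4b* (-1.68), *Pde10a* (-0.99), *Prkar1a* (-0.80), *Gnas* (-0.53), *Gnai2* (1.02) and *Prkar2a* (0.67) had an adjusted p under 0.05 by limma.

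Of 36 listed genes of receptor desensitization and trafficking, 34 were matched and 33 passed the filter, 0 with an adjusted p under 0.05 by limma and 1 at an unadjusted p under 0.05, against 7.96% of all genes. This was *Dnm1*, named after its value was seen. With clone quality weights 3 had an adjusted p under 0.05, against 12.1% of all genes. The list had a median of -0.01 beside 0.04 over all genes. *Grk5* and *Grk3*, kinases that phosphorylate active receptors, had log2 fold changes of 0.39 and 0.32 (adjusted p-values of 0.707 and 0.614 by limma). *Hip1* and *Ap2a2*, which take part in clathrin-coated endocytosis, had -0.38 and -0.25 (adjusted p-values of 0.711 and 0.718 by limma). Of these 4, *Grk3* alone did not overlap between groups. With clone quality weights *Grk5* (0.75) and *Grk3* (0.51) had an adjusted p under 0.05 by limma, and *Hip1* was at -0.59 without control clone 3.

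**Figure D5:**
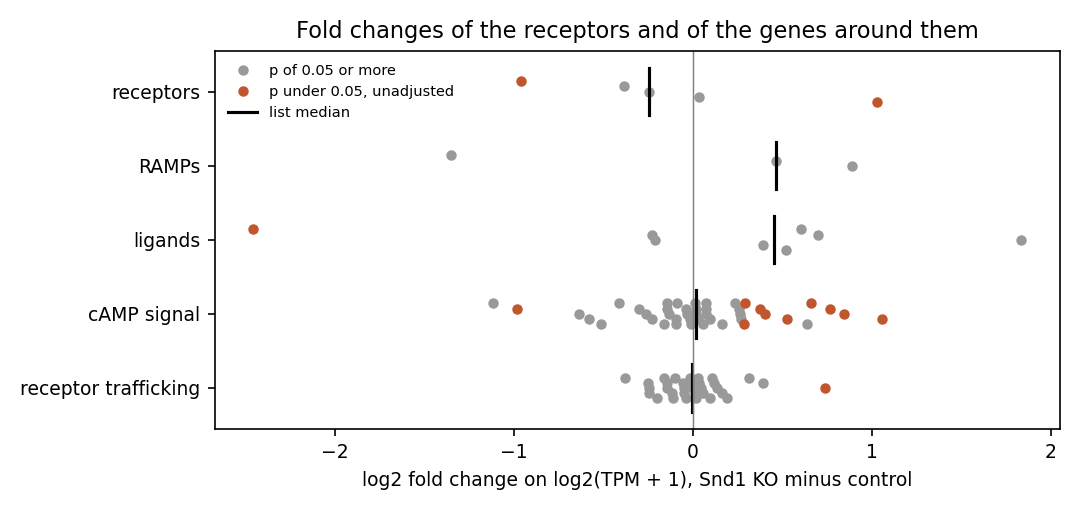
Log2 fold changes on the log2(TPM + 1) scale (horizontal axis, *Snd1* KO minus control) of the genes above the filter in 5 lists, 1 point per gene and a line at the list median, in orange where the unadjusted limma p was under 0.05. *Glp1r* and *Vipr1* are the 2 orange receptors, on opposite sides of 0, and trafficking genes cluster near 0.

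The genes whose level most resembled that of *Glp1r* over the 6 clones were sought by Pearson correlation of log2(TPM + 1) among the 11368 genes averaging 5 TPM or more. The first 5 were *Sept9*, *Tubb6*, *Bckdhb*, *Atp9b* and *Cpt1c*, with r from 0.993 to 0.996. *Sept9*, a septin of the cytoskeleton, was at 25.6, 23.3 and 16.9 TPM in control and 16.0, 14.8 and 14.8 TPM in KO clones, and *Tubb6*, a β-tubulin, at 428, 422 and 381 against 372, 359 and 371 TPM. As for *Glp1r*, control clone 3 lay between the other controls and the KO clones in both genes, over a narrower range. The first 5 for *Crhr1* were *Eml1*, *Manbal*, *Fam92b*, *Polr1b* and *Galnt10*, with r from 0.976 to 0.994, and none was shared with *Glp1r*. With 6 points and so many genes such values are a description of these clones.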

How the data were processed

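RNA from 3 control and 3 *Snd1* KO MIN6 clones was sequenced as paired ends, 1 library per clone, and groups were taken from the genotype in the sample labels. The authors deposited TPM values per gene, which sum to 1000000 per clone. The submitters' processing notes name FastQC, Trimmomatic, HISAT2, HTSeq, DESeq2 and mm10, with no role or order, and no annotation or strand setting is given in the sources used here. Files list 53808 genes and 92 ERCC controls, which were left out, and GENCODE M21 held 53706 of these genes. TPM multiplied by the summed exon length gave whole reads within 0.01 for 93.5% of values above 0, and for 99.0% after a length was searched for 1279 genes, choosing the shortest. These recovered reads gave the depth, and 3 reads were taken as the floor. Whether both mates were counted is not stated, and reads cover counting error only.

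The 17823 genes averaging 0.5 TPM or more were compared on the log2(TPM + 1) scale. Linear models were fitted in R 4.3.3 by limma 3.58.1, whose eBayes step used a trend of the variance on the mean. P-values were adjusted by Benjamini-Hochberg over all of these genes, and calls took an adjusted p under 0.05 and a 2-fold change. Single values were compared between groups by exact permutation, two-sided. Python 3.11.15 with numpy 2.4.6, pandas 2.3.3, scipy 1.17.1 and matplotlib 3.10.9 was used for all else. The fit was first tested on simulated data that held known changes, larger than those of the receptors above the filter and with the same spread for every gene. That test does not show how the fit handles smaller changes in clones of unequal spread. The receptors and the other gene lists, written by hand, were chosen with earlier results of these data known. The genes named were all 10 receptors, *Snd1*, RAMPs and ligands averaging 5 TPM or more or binding a receptor above the filter, the 3 largest fold changes in each direction of the cAMP list and 2 of the trafficking list at that mean, and the 5 genes most correlated with *Glp1r* and with *Crhr1*. *Pth2r*, *Ramp1*, *Ramp3*, *Gnas*, *Dnm1*, *Pde7b*, *Pde4d*, *Adcy3*, *Pkib*, *Sst*, *Cela1*, *Col3a1*, *Col1a1*, *Neurod1*, *Slc30a8*, *Slc2a2*, *Mafa* and the genes most correlated with *Vipr1* were added after their values were seen.

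Alternatives were a pseudocount of 0.1, no filter or a filter at 5 TPM, quantile and median ratio scaling, rescaling without insulin and mitochondrial genes, clone quality weights, no trend, a replicate block, each clone left out, union exon length and voom on recovered reads. Leaving out control clone 3 with KO clone 1, and voom for genes of 10 reads or more in all, and the level of *Glp1r* over its annotated exons were added after the data were seen.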

Additional observations from a re-analysis of the deposited data

How the results depend on the processing

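Leaving out each clone in turn, the number of genes called at an adjusted p under 0.05 and a 2-fold change (limma, 1 with all clones) was 0 to 1. It was 0 without a filter, without a trend, with a replicate block and with voom, 895 with clone quality weights and 133 without control clone 3 and KO clone 1. Receptors with an adjusted p under 0.05 numbered 2 with clone quality weights and 2 without these 2 clones, *Glp1r* (log2 fold change -1.23 and -1.35) and *Vipr1* (1.52 and 1.66), and 0 under the other alternatives run. The cause was not tested, though the weights count control clone 3 and KO clone 1 least and KO clone 3 most. *Glp1r*, *Vipr1*, *Gipr* and *Crhr1* kept their direction in all 18 alternatives. *Glp1r* ranged from -1.31 to -0.75 with 1 clone left out. *Vipr2* turned to -0.12 with quantile normalization, and with 1 clone left out it ranged from -0.12 to 0.16, turning to -0.05 without control clone 3 and -0.12 without KO clone 3, beside its SE of 0.25. No pairing by clone number was seen, since deviations of same-numbered clones correlated at 0.12, -0.20 and -0.11, though shared handling of such clones was not tested. With the replicate block *Glp1r* kept -0.96 with a limma adjusted p of 0.736, and no receptor passed. Depth limits *Vipr2* (39 to 78 reads), *Adcyap1r1* and the 4 receptors at or under 3 reads; for the others the spread between 3 clones is the limit.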

Other observations

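The genes whose level most resembled that of *Vipr1* over the 6 clones, looked up after its values were seen, were *Usp19*, *Hmx2*, *Trp53*, *Rnf123* and *Apeh*, with Pearson r of log2(TPM + 1) from 0.993 to 0.996 among 11368 genes. *Usp19*, a deubiquitinase, was at 11.9 and 11.1 TPM in control clones 1 and 2, at 22.4 TPM in control clone 3 and at 19.7, 23.4 and 23.4 TPM in *Snd1* KO clones 1 to 3. *Trp53*, the p53 gene, was at 17.6 and 15.7 TPM in control clones 1 and 2, at 26.2 TPM in control clone 3 and at 25.0, 30.4 and 27.1 TPM in KO clones. As for *Vipr1*, control clones 1 and 2 were the low ones, so these genes divided the clones in another way than the *Snd1* genotype does.

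Of these 5 genes, *Usp19*, *Rnf123* and *Apeh* lie between positions 100000000 and 109999999 of chromosome 9 (GRCm38). *Vipr1* is on the same chromosome, beyond position 120000000. The 94 genes of the former stretch averaging 5 TPM or more had median deviations from their own mean of -0.34 and -0.37 (log2) in control clones 1 and 2, and of 0.14, 0.12, 0.18 and 0.17 in control clone 3 and KO clones 1 to 3. The 40 genes of the stretch that holds *Vipr1*, from position 120000000 to the end, had medians of -0.02, -0.07, -0.10, 0.05, 0.12 and 0.03 in the same order of clones. Over all 621 such genes of chromosome 9 the medians lay between -0.11 and 0.05, with both of control clones 1 and 2 at or above 0. The shift was taken as the mean of these medians in control clone 3 and KO clones 1 to 3 minus that in control clones 1 and 2. It was 0.51 in the former stretch and 0.07 in the one that holds *Vipr1*, beside -0.03 over chromosome 9 and -0.06 over all genes. The shift was thus much smaller, in the same direction, where *Vipr1* lies, and its part in the values of *Vipr1* was not tested. Chromosome 17, which carries *Glp1r*, had medians of -0.06 to 0.09 over 574 genes. What sets the former stretch of chromosome 9 apart was not tested.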
